A study of Rattus norvegicus with 12 samples.

Results

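The 6 genes described here encode the proteins that make, carry and break down dopamine and the other monoamines, and through which methamphetamine (MA) acts on dopamine terminals. They were chosen by symbol: Th and Ddc for synthesis, Slc6a3 and Slc18a2 for transport, and Maoa and Maob for breakdown. All 6 were found among the 17337 genes of the count table. The table covered the whole striatum of 12 wild-type male Sprague-Dawley rats, 4 in each of 3 groups, measured by poly(A) RNA sequencing. Training began at 8 weeks of age, and in the study's methods MA was taken intravenously at 0.05 mg/kg per infusion in daily sessions of 2 h for 16 days. MA12 and MA24 rats were killed 12 h and 24 h after that schedule. The rats lived in a 12-h light-dark cycle, and the clock hours of sessions and killing are not given in the sources used here. The length of abstinence and the time of day therefore cannot be told apart in MA24 against MA12. Non-addicted rats were labelled as having gone through the same 16 days of MA self-administration, so by the labels all 3 groups share the drug. The study's methods describe no non-addicted group, so the MA intake of these rats rests on the labels alone, and how they were selected and when they were killed is not given in the sources used here. The study also had saline rats and rats sampled straight after self-administration. No library used here was labelled as either, so no level of these genes known to be MA-free is given. Whether the non-addicted rats correspond to one of those groups is not given in the sources used here. Each library came from 1 rat, so the tests take rats as replicates. The edgeR p-values and intervals also draw on the spread of other genes, whereas the exact permutation p-values use a gene's own values alone.

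Tyrosine hydroxylase (Th) makes L-DOPA from tyrosine in the rate-limiting step of dopamine synthesis, and aromatic L-amino acid decarboxylase (Ddc) turns L-DOPA into dopamine. The vesicular monoamine transporter VMAT2 (Slc18a2) packs monoamines into synaptic vesicles, and the dopamine transporter DAT (Slc6a3) returns released dopamine to the terminal. MA enters terminals through DAT, empties vesicles through VMAT2 and reverses DAT, while the monoamine oxidases A and B (Maoa and Maob), on the outer mitochondrial membrane, degrade the dopamine left in the cytosol. The dopamine neurons that carry Th, Slc6a3 and Slc18a2 have their cell bodies in the midbrain and only their axons in the striatum, so striatal tissue holds dopamine terminals but few of the cell bodies where most of their mRNA lies. Ddc is also made outside monoamine neurons, and Maob is a gene of astrocytes and serotonin neurons.

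The proximal promoters of the 4 genes below are shown because they are the sequence context in which these transcripts start, with Slc18a2 and Th as the pair that share a cAMP response element and Maoa and Maob as the pair of oxidase genes. Each window holds 250 bases before and 50 bases from an annotated start site in RefSeq on the GRCr8 rat assembly, printed 5′ to 3′ on the gene's own strand. Capitals mark the cAMP response element, TGACGTCA, and the GC box, GGGCGG or its reverse complement CCGCCC.
Th promoter: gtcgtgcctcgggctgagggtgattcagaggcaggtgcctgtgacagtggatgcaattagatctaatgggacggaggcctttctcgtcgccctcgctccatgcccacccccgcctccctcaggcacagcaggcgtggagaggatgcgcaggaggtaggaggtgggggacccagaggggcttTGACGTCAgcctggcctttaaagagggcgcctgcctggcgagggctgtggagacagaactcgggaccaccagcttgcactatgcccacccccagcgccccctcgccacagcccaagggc
Slc18a2 promoter: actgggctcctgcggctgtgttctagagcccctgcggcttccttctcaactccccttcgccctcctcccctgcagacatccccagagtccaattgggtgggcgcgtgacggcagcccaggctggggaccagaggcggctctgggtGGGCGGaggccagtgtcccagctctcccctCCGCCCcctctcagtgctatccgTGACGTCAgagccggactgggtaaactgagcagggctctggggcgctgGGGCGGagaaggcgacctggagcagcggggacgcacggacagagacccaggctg
Maoa promoter: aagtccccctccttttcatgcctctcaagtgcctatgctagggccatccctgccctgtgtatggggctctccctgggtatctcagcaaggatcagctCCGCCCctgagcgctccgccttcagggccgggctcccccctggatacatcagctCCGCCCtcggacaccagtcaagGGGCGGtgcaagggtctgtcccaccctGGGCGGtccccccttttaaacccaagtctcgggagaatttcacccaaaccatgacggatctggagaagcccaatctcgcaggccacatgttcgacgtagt
Maob promoter: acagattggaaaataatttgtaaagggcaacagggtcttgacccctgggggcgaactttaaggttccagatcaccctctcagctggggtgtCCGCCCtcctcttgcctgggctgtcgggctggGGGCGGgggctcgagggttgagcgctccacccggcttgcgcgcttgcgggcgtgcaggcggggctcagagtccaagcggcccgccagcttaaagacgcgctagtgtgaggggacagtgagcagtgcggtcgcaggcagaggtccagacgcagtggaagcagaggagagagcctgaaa

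The Th window lay at chr1:207508169-207508468 on the minus strand, and its cAMP response element began at position -69 from the start site. The Slc18a2 window lay at chr1:268399771-268400070 on the plus strand, with a cAMP response element at -52 and GC boxes at -105, -75 and -4. Both oxidase genes lie on chromosome X, where the Maoa window was chrX:8681323-8681622 on the minus strand and the Maob window chrX:8490155-8490454 on the plus strand. The Maoa promoter held 4 GC boxes, at -153, -99, -77 and -50, and the Maob promoter held 2, at -159 and -127. Among all 33469 RefSeq promoter windows of this length, searched on both strands, the cAMP response element was present in 1.83% and the GC box in 33.1%. The window of Slc6a3 held GC boxes at -136, -125 and -78. None of the 3 windows of Ddc held either motif. A TATA box (TATAAA or TTTATA), present in 14.2% of all windows, was found in 1 Ddc window alone among the members, and the clock E-box CACGTG, present in 6.42%, was found in none. These matches are letters in a window and were not tested against binding or expression.

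The libraries held between 17908962 and 23850284 counts. Values are given as raw counts or as CPM, which sets a gene's count against its library's total after TMM scaling. The 12 striatal projection neuron markers examined, among them Drd1, Drd2, Adora2a and Ppp1r1b, were all detected in every group, with a summed level of 14528 to 19014 CPM over the 12 rats. Of 11 midbrain dopamine neuron markers in the table, Lmx1b and Foxa2 had 0 counts in all 12 libraries, and Pitx3, Lmx1a, Foxa1, En2 and Chrna6 had mean counts of 4 or less. The other 4, which are not confined to dopamine neurons, were present, with mean counts of 1162 for Slc10a4, 105 for Sox6, 61.2 for Ret and 35.6 for Nr4a2, and the list summed to 49.4 to 69.0 CPM in MA12, 61.5 to 81.1 in MA24 and 57.6 to 70.2 in non-addicted rats. Sox6 was lower in MA24 than in MA12 (log2 FC -1.01 ± 0.24, adjusted p = 0.0202), and Slc10a4, Ret and Nr4a2 did not pass, at 0.33, -0.36 and -0.10. Rat numbers were of 2 kinds, with and without a closing N, whose meaning the labels do not give. All 4 MA24 rats and MA12 rats 4N and 7N had numbers ending in N, and MA12 rats 21 and 31 and all 4 non-addicted rats did not. For MA24 against the non-addicted rats, the group and the kind of rat number therefore cannot be told apart.

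None of the members passed the test in any comparison, where a differentially expressed gene (DEG) had an adjusted p below 0.05 by edgeR's quasi-likelihood test and a fold change (FC) of at least 1.5. In MA24 against MA12, 0 of 5 tested members were DEGs, beside 264 of 10754 genes or 2.45% of all genes tested. Non-addicted against MA12 also gave 0 of 5, beside 27 of 10758 genes or 0.251%, as did non-addicted against MA24, beside 49 of 10744 genes or 0.456%. At an unadjusted p below 0.05 the counts of members were 1, 0 and 1, each time Slc18a2. Of all genes tested, 2538 (23.6%), 1327 (12.3%) and 1879 (17.5%) were below it. For 5 genes the member counts are near these shares, so they say little. DESeq2 and edgeR's likelihood ratio test called 0 members as well. The sixth member, Slc6a3, was too low to test. The background shares of DEGs correspond to fewer than 1 call among 5 genes, so the counts of 0 say little, and the size and interval of each difference are given instead. The median log2 FC of the 5 members was -0.00, -0.08 and 0.13 in the 3 comparisons, beside -0.02, -0.01 and 0.00 over all genes tested. No member separated any pair of groups completely, beside 15.6% of genes in MA24 against MA12, 7.1% in non-addicted against MA12 and 10% in non-addicted against MA24. Shares of this size again correspond to fewer than 1 of 5 genes, so this too says little. In bulk tissue, fewer cells of a type and less RNA per cell cannot be told apart. The 3 comparisons share groups, so a rat that stands out in one group enters 2 of them.

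**Figure D1:**
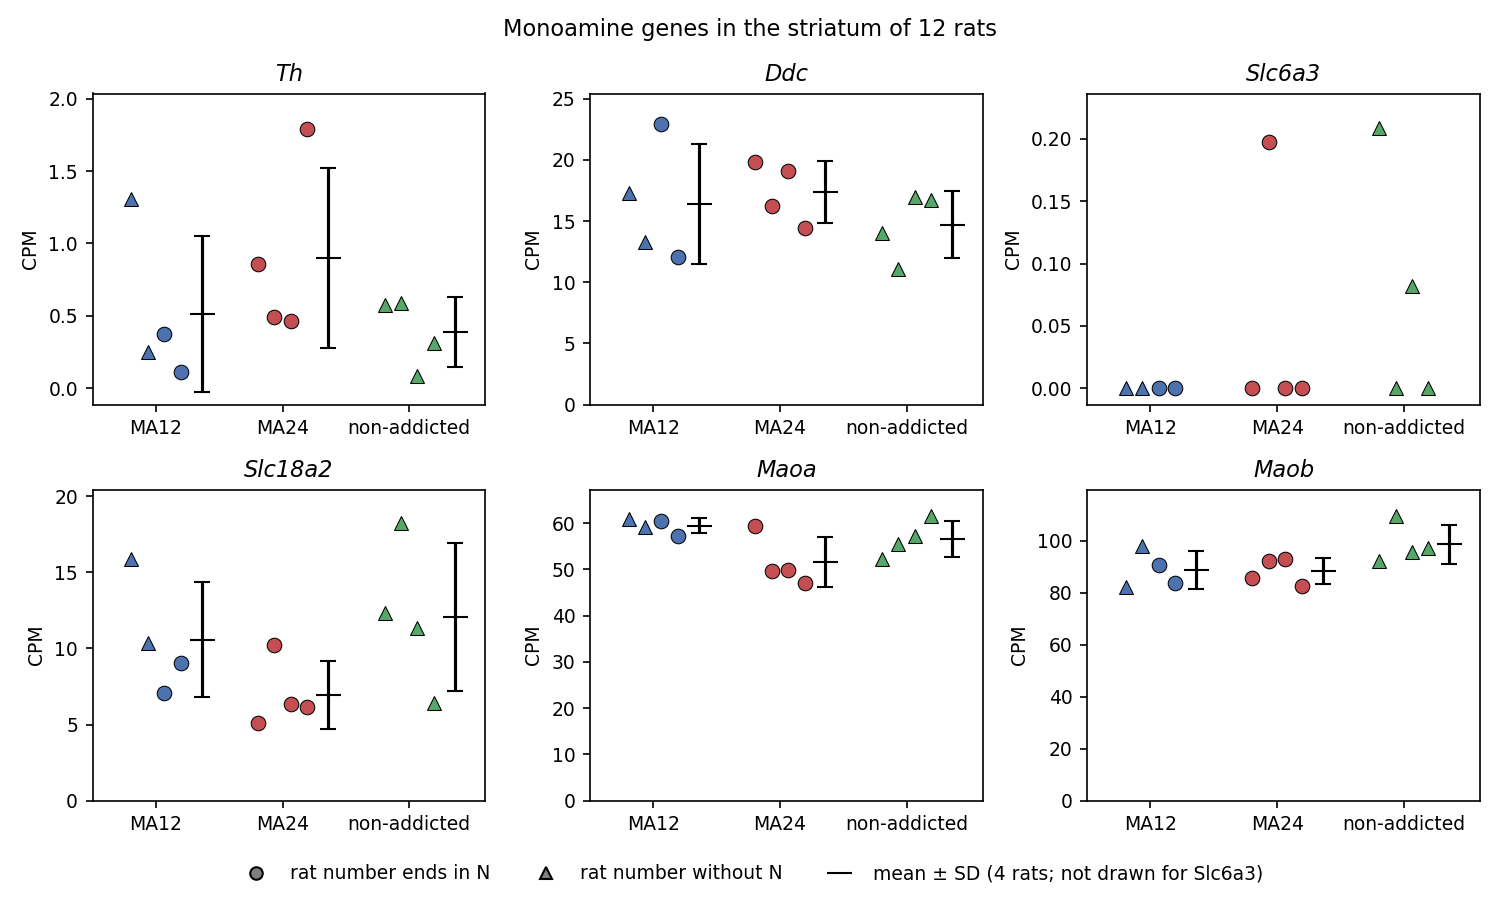
Level of each of the 6 genes in every rat, in CPM on a linear axis, with circles for rats whose number ends in N, triangles for the others, and a bar for the mean ± SD of 4 rats (not drawn for Slc6a3). Maoa and Maob lay in narrow bands, Slc18a2 and Th spread widely within groups, and 3 of 4 MA24 rats lay below all MA12 rats for Slc18a2 and for Maoa.

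Th, the synthesis gene closest to a dopamine neuron marker, was barely above detection in the striatum. It had 31, 6, 8 and 2 counts in MA12 rats 21, 31, 4N and 7N. MA24 rats 9N, 14N, 15N and 16N had 20, 10, 9 and 34 counts, and non-addicted rats 9, 11, 12 and 13 had 11, 12, 2 and 6. MA12 rat 21 and MA24 rats 9N and 16N stood above the rest, and all 3 groups overlapped. On the log2 CPM scale the means were -1.10 ± 1.16 in MA12, -0.19 ± 0.82 in MA24 and -1.23 ± 0.91 in the non-addicted rats (SD, n = 4 each), of which counting error alone gives about 0.42, 0.34 and 0.52. The order was MA24, MA12, non-addicted, and neither neighbouring pair in it passed the test. Log2 FC of Th was 0.78 ± 0.66 (SE) for MA24 against MA12, with a 95% interval from -0.60 to 2.16 and an adjusted p of 0.488. Against MA24 the non-addicted rats differed by a log2 FC of -1.22 ± 0.63 (interval -2.54 to 0.10, adjusted p = 0.317), and against MA12 by -0.44 ± 0.73 (interval -1.97 to 1.09, adjusted p = 0.862). All 3 intervals extended past a 1.5-fold change. The size rested on single rats, since without MA24 rat 16N the log2 FC of MA24 against MA12 was 0.22 and without MA12 rat 21 it was 1.83. With N rats alone it was 1.83 ± 0.82 (adjusted p = 0.303). Without MA12 rat 21 the non-addicted against MA12 difference turned from negative to 0.60. The exact permutation test over rats gave p = 0.229 for MA24 against MA12, p = 0.857 for non-addicted against MA12 and p = 0.171 for non-addicted against MA24, where 4 against 4 rats can reach 0.0286 at the lowest.

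Ddc, the decarboxylase shared by the dopamine and serotonin pathways, was measured well above detection in every rat. Its level was 17.3, 13.3, 23.0 and 12.1 CPM in MA12 rats 21, 31, 4N and 7N. The MA24 rats, in the order 9N, 14N, 15N and 16N, had 19.8, 16.2, 19.1 and 14.4 CPM, all inside the range of the MA12 rats. Non-addicted rats 9, 11, 12 and 13 had 14.1, 11.1, 16.9 and 16.7 CPM, and rat 11 was the lowest of the 12. Group means were 16.4 ± 4.90, 17.4 ± 2.53 and 14.7 ± 2.73 CPM (SD, n = 4) for MA12, MA24 and non-addicted rats, and no pair of groups passed the test. The log2 FC was 0.09 ± 0.18 for MA24 against MA12 (95% interval -0.28 to 0.45, adjusted p = 0.804), a direction that turned when only rats with N numbers were compared. It was -0.16 ± 0.19 for non-addicted against MA12 (interval -0.56 to 0.23, adjusted p = 0.783) and -0.25 ± 0.15 for non-addicted against MA24 (interval -0.57 to 0.08, adjusted p = 0.401). A change of 1.5-fold, 0.58 on the log2 scale, lay outside all 3 intervals of Ddc. Exact permutation p-values were 0.629, 0.629 and 0.257 in the same order.

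Slc6a3, the transporter through which MA enters dopamine terminals, was at or near 0 counts in all 12 libraries. All 4 MA12 rats had 0 counts. In MA24, rat 14N had 4 counts and the other rats 0, and in the non-addicted group rat 9 had 4, rat 12 had 2 and rats 11 and 13 had 0. Pooled over 4 rats, 0 of 85221743 counts in MA12 allow a level of up to 0.0352 CPM, taken as 3 counts, or up to 0.0433 CPM by the exact 95% Poisson interval used for the other groups. Pooled MA24 libraries gave 0.0477 CPM with an exact 95% Poisson interval from 0.0130 to 0.122, and non-addicted libraries 0.0729 CPM with an interval from 0.0267 to 0.159. All these limits cover counting error only, not the spread between rats. A difference between groups was not detectable at this depth, and no FC is given.

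Slc18a2, the vesicular transporter that MA empties, had the largest difference in relation to its error among the members, and it was lowest in MA24. It stood at 15.9, 10.4, 7.06 and 9.03 CPM in MA12 rats 21, 31, 4N and 7N. MA24 rats 9N, 14N, 15N and 16N had 5.12, 10.2, 6.37 and 6.12 CPM, so that 3 of 4 lay below every MA12 rat. Non-addicted rats 9, 11, 12 and 13 had 12.3, 18.2, 11.3 and 6.4 CPM, and 3 of 4 lay above every MA24 rat, rat 13 being the exception. Mean levels were 12.1 ± 4.86 CPM in non-addicted, 10.6 ± 3.78 in MA12 and 6.95 ± 2.24 in MA24 rats (SD, n = 4), and neither neighbouring pair in that order passed the test. The log2 FC for MA24 against MA12 was -0.61 ± 0.24 with a 95% interval from -1.11 to -0.10, an unadjusted p of 0.0211 and an adjusted p of 0.136. For non-addicted against MA24 it was 0.79 ± 0.26, a 1.73-fold difference, with an interval from 0.26 to 1.33 and an adjusted p of 0.138. Non-addicted and MA12 rats differed by 0.18 ± 0.26 (interval -0.36 to 0.72, adjusted p = 0.831). By the exact permutation test over rats, p was 0.114 for MA24 against MA12, 0.714 for non-addicted against MA12 and 0.0571 for non-addicted against MA24.

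2 libraries decided whether Slc18a2 counted as a DEG between non-addicted and MA24 rats. Without non-addicted rat 13 the log2 FC was 1.0 with an adjusted p of 0.0177, and without MA24 rat 14N it was 1.03 with an adjusted p of 0.0434. The other 13 alternatives to this comparison left it short of the threshold. Over the 17 alternatives for MA24 against MA12 the log2 FC ran from -0.85 to -0.20, always negative, with adjusted p from 0.0547 to 0.750 and no call. The smallest differences came from comparisons that took the kind of rat number into account, at -0.20 ± 0.26 with N rats alone (2 MA12 against 4 MA24 rats) and -0.21 ± 0.27 when the kind of number entered the fit as a term. Without MA12 rat 21 the log2 FC was -0.33 ± 0.24. Over all groups, Slc18a2 ran from 2.38 to 3.36 log2 CPM with a median of 2.77 in the 6 N rats and from 2.7 to 4.20 with a median of 3.57 in the 6 others. Within MA12 the N rats, at 2.84 and 3.19, were both below the others, at 3.39 and 4.00. The part of the rat numbering in the time difference was not tested beyond these fits.

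**Figure D2:**
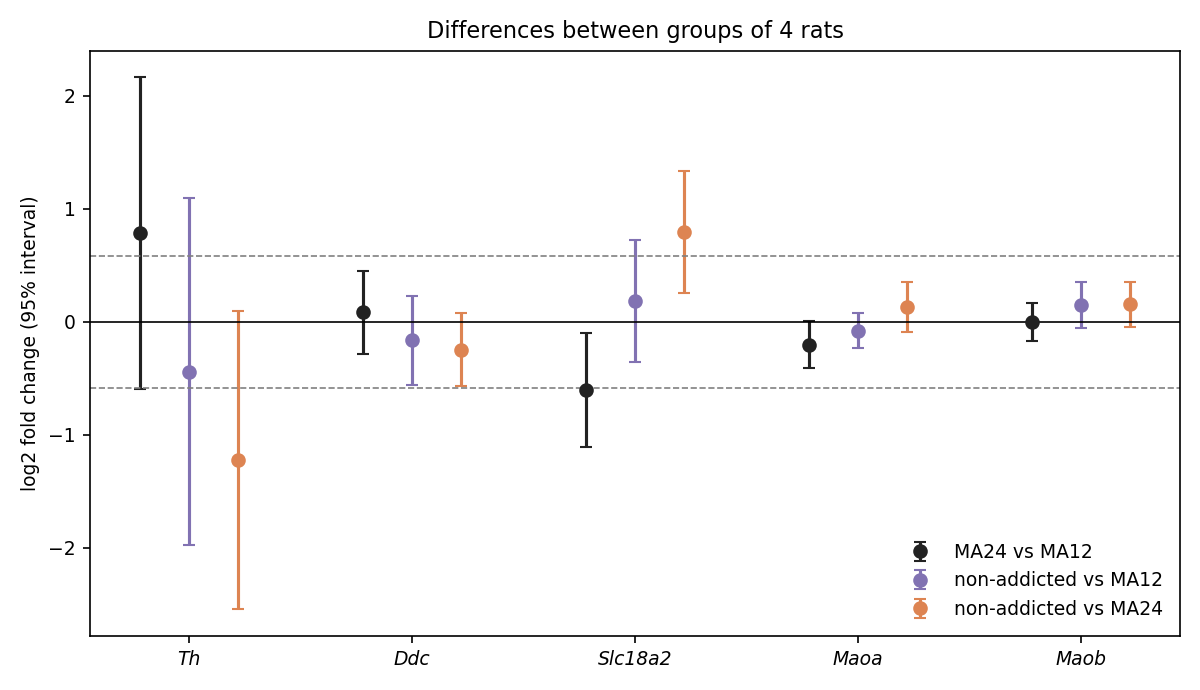
Log2 FC of the 5 tested genes in the 3 comparisons, with 95% intervals from the edgeR fit and dashed lines at a 1.5-fold change in each direction. The intervals of Slc18a2 for MA24 against MA12 and for non-addicted against MA24 lay to one side of 0, those of Th were the widest, and those of Ddc, Maoa and Maob stayed within the dashed lines.

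Slc18a2 varied more between rats than most genes of similar abundance. Its SD over the 12 rats was 0.572 log2 CPM, larger than that of 96.7% of 2811 genes with similar mean counts, whose median SD was 0.248. This SD also takes in differences between groups. Within groups the SD was 0.485 in MA12, 0.420 in MA24 and 0.618 in non-addicted rats, and these were not ranked against other genes. The edgeR intervals of Slc18a2, which borrow error from other genes, may be too narrow if its spread within groups also exceeds theirs. For Ddc the SD of 0.304 exceeded that of 81.9% of similar genes and for Th the SD of 1.01 exceeded that of 84.5%, while Maoa at 0.131 and Maob at 0.121 lay near the middle, above 40.1% and 39.5%. All 7 ependymal and choroid plexus markers examined (Foxj1, Tmem212, Ttr, Folr1, Kl, Clic6 and Enkur) were detected. Ttr was at 0 in 6 of the 12 libraries, with a highest count of 329 in a non-addicted rat, and Kl had a mean count of 7.5. The Slc18a2 level moved across rats with the summed level of these 7 markers. That sum ranged from 24.6 to 66.9 CPM in MA12, from 28.9 to 39.4 in MA24 and from 40.6 to 95.2 in non-addicted rats. Pearson's r with Slc18a2 was 0.80 and Spearman's rho 0.77 over 12 rats, r was 0.70 without the 2 rats farthest from the median sum, and it was 0.45 within the 6 N rats and 0.66 within the 6 others. The summed level of 12 striatal projection neuron markers moved the opposite way, with r = -0.82 and rho = -0.82, -0.67 without the 2 farthest rats, -0.85 in rats without N and -0.08 in N rats. That sum ran from 14720 to 18705 CPM in MA12, from 17226 to 19014 in MA24 and from 14528 to 17586 in non-addicted rats. It rested largely on Ppp1r1b, with means of 7247 CPM in MA12, 8831 in MA24 and 7262 in non-addicted rats. Of 11 tested markers of this list, 7 were lower and 4 higher in MA24 than in MA12. Astrocyte (r = -0.65), oligodendrocyte (r = -0.64), endothelial and mural (r = -0.56) and midbrain dopamine neuron (r = -0.54) marker sums also ran against Slc18a2. The last of these sums rested mostly on Slc10a4, a gene not confined to dopamine neurons. Slc10a4 averaged 50.1 CPM in MA12, 63.1 in MA24 and 54.6 in non-addicted rats. The noradrenergic marker sum ran with Slc18a2, at r = 0.66 and rho = 0.76, 0.59 without the 2 farthest rats, 0.02 in N rats and 0.88 in the others. That list had 3 genes in the table, Dbh at a mean count of 7.08 and Phox2a and Slc6a2 at 4 or less, and summed to 0.0528 to 0.789 CPM. These are descriptions from 60 relations, 12 marker lists with 5 genes, in rats that share the kind of number and group, and the ependymal list was picked for display after its values were seen. The part of tissue composition in the Slc18a2 differences was not tested.

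**Figure D3:**
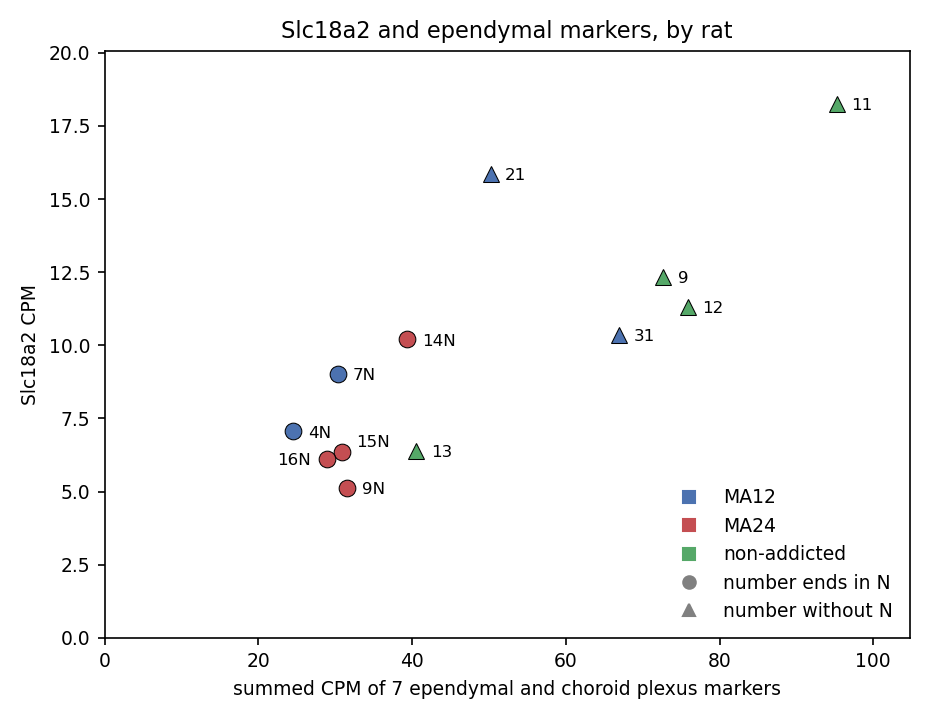
Slc18a2 level in CPM against the summed CPM of 7 ependymal and choroid plexus markers, 1 point per rat with its number, coloured by group, with circles for N numbers and triangles for the others. Rat 11 was highest on both axes, and the 6 N rats and non-addicted rat 13 sat together at low values of both.

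Maoa, the oxidase with a preference for serotonin and noradrenaline, was slightly lower in MA24 than in MA12, without passing the test. It was 60.8, 59.1, 60.5 and 57.3 CPM in MA12 rats 21, 31, 4N and 7N, the tightest set of any member. MA24 rats 9N, 14N, 15N and 16N had 59.4, 49.7, 49.98 and 47.1 CPM, so that 3 of 4 fell below every MA12 rat and rat 9N lay among them. Non-addicted rats 9, 11, 12 and 13 had 52.3, 55.4, 57.2 and 61.5 CPM and overlapped both groups. From MA12 through non-addicted to MA24 the means were 59.4 ± 1.62, 56.6 ± 3.86 and 51.5 ± 5.43 CPM (SD, n = 4), and neither neighbouring pair passed the test. Log2 FC for MA24 against MA12 was -0.20 ± 0.10 with a 95% interval from -0.41 to 0.01 and an adjusted p of 0.224. With N rats alone this difference was -0.18, and with a term for the kind of number it was -0.20. Non-addicted rats differed from MA24 by 0.13 ± 0.10 (interval -0.09 to 0.35, adjusted p = 0.517). Their difference from MA12 was -0.08 ± 0.07 (interval -0.23 to 0.08, adjusted p = 0.736), read from the fit without the variance filter, which had removed Maoa and in which 0.0395% of all genes were DEGs. Exact permutation p-values for Maoa were 0.0857 for MA24 against MA12, 0.257 for non-addicted against MA12 and 0.171 for non-addicted against MA24.

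Maob, the oxidase of astrocytes and serotonin neurons, had the same mean in MA12 and MA24 to within 0.01 on the log2 CPM scale and was slightly higher in non-addicted rats. MA12 rats 21, 31, 4N and 7N had 82.4, 98.1, 90.6 and 83.6 CPM. MA24 rats 9N, 14N, 15N and 16N had 85.8, 92.3, 93.0 and 82.6 CPM, and non-addicted rats 9, 11, 12 and 13 had 92.2, 109, 95.7 and 97.2. Rat 11 was the highest of the 12, and the ranges of all 3 groups overlapped. Mean levels were 98.7 ± 7.51 CPM in non-addicted, 88.7 ± 7.29 in MA12 and 88.4 ± 5.06 in MA24 rats (SD, n = 4). The step from non-addicted to MA12 was larger than either group's SD but did not pass the test, nor did that from MA12 to MA24. The log2 FC was -0.00 ± 0.08 for MA24 against MA12 with a 95% interval from -0.17 to 0.17 (adjusted p = 0.985), read from the fit without the variance filter, in which 1.54% of all genes were DEGs. It was 0.15 ± 0.10 for non-addicted against both MA12 (interval -0.05 to 0.35, adjusted p = 0.562) and MA24 (interval -0.05 to 0.35, adjusted p = 0.396). Exact permutation p-values were 1 for MA24 against MA12, 0.143 for non-addicted against MA12 and 0.0857 for non-addicted against MA24. For both oxidases a 1.5-fold change lay outside the interval of every comparison.

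The 2 oxidases varied with little relation to each other, at r = 0.09 and rho = -0.02 over the 12 libraries. The number of Maob counts per Maoa count, looked at after the levels were seen and given with no test, was 1.35, 1.66, 1.5 and 1.46 in MA12 rats 21, 31, 4N and 7N. In MA24 rats 9N, 14N, 15N and 16N it was 1.44, 1.86, 1.86 and 1.76, and in non-addicted rats 9, 11, 12 and 13 it was 1.76, 1.98, 1.67 and 1.58. 3 of 4 MA24 rats stood above every MA12 rat on this ratio. Maob also varied with the ependymal marker sum (r = 0.66, rho = 0.59), and r was 0.40 without the 2 farthest rats, 0.23 in N rats and 0.56 in the others. For Maob, r was 0.01 with the astrocyte sum and 0.21 with the serotonin neuron sum.

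The genes whose pattern over the 12 libraries was most like each member were taken by Pearson's r of log2 CPM among 10764 genes with a mean count of at least 50, as a description. For Slc18a2 they were Drc1, a ciliary dynein regulatory gene, at r = 0.92, and Nme6 and Mycbp, both at 0.90. Ddc was followed most closely by Litaf and Ap3s2 at 0.85 and Grb7 at 0.84. Maoa had Ddx6 at 0.93 and Pde1c and Dcp2 at 0.92, and Maob had Dopey2 at 0.87, Mchr1 at 0.86 and Nfkb1 at 0.81. Among the members themselves, Slc18a2 ran against Ddc (r = -0.55) and with Maob (r = 0.38). The 12 libraries share group and kind of rat number, and no meaning is read from these values. Th and Slc6a3 were too low for such a list.

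The rest of the monoamine pathway was followed in 37 other genes, all present in the table, in 5 lists for cofactor supply, synthesis, transport, breakdown and MA-related partners. In MA24 against MA12, 25 were tested and 1 was upregulated and 0 downregulated, beside the 2.45% of all genes, and 6 (24%) had an unadjusted p below 0.05, beside 23.6% of all genes. Of the 37, 27 were tested in non-addicted against MA12 and 26 in non-addicted against MA24, with 0 DEGs in both by the edgeR quasi-likelihood test, beside 0.251% and 0.456% of all genes. At an unadjusted p below 0.05 there were 5 (18.5%) and 2 (7.69%) of them, beside 12.3% and 17.5% of all genes. DESeq2 also called 0 in both, and the likelihood ratio test 1 in each, which was Sncg. The median log2 FC of the tested list genes was 0.13, 0.08 and -0.06 in the 3 comparisons.

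Slc18a1, which encodes VMAT1, the vesicular transporter best known from endocrine cells, was the only DEG of the list, and it was higher in MA24. It had 50, 49, 30 and 32 counts in MA12 rats 21, 31, 4N and 7N. MA24 rats 9N, 14N, 15N and 16N had 111, 107, 37 and 102 counts, or 4.77, 5.28, 1.90 and 5.38 CPM. Rat 15N lay inside the MA12 range of 1.41 to 2.10 CPM and the other 3 rats were above it. The log2 FC was 1.23 ± 0.32 with an adjusted p of 0.0312. This call was lost in 8 of 17 alternatives, over which the log2 FC ran from 1.11 to 1.48 and the adjusted p from 0.00533 to 0.117. Among these were the fits without MA12 rat 21 (adjusted p = 0.0589), MA12 rat 4N (0.0630), MA24 rat 14N (0.0874) or MA24 rat 16N (0.0943), with N rats alone (0.0635) and with a term for the kind of number (0.117). Non-addicted rats 9, 11, 12 and 13 had 68, 27, 135 and 107 counts, and their log2 FC against MA12, 1.11 ± 0.36, did not pass (adjusted p = 0.195). The 2 vesicular transporters thus stood at opposite signs in MA24 against MA12, 1.23 for Slc18a1 and -0.61 for Slc18a2, of which only the first passed.

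**Figure D4:**
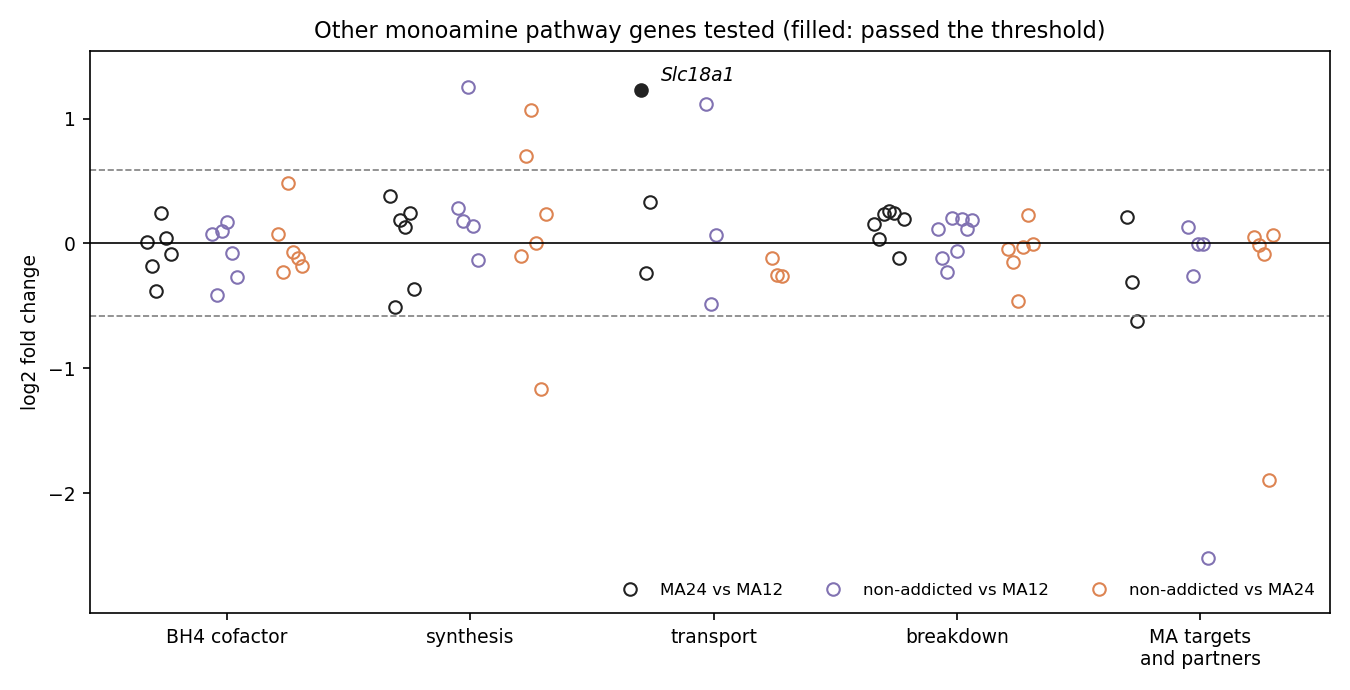
Log2 FC of the tested genes of the 5 other monoamine lists, 1 point per gene and comparison, with dashed lines at a 1.5-fold change and filled points for DEGs. Most genes lay between the dashed lines, Slc18a1 was the single filled point, and the 2 lowest points of the MA-related partners were Sncg.

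In the cofactor list, which makes and recycles the tetrahydrobiopterin that Th needs, Qdpr had the highest mean count, with log2 FC of -0.09 ± 0.11 for MA24 against MA12 (adjusted p = 0.674), and 0 of its 6 tested genes were DEGs. Among the other synthesis genes, Tph2, the neuronal tryptophan hydroxylase, had the highest mean count and a log2 FC of -0.37 ± 0.25 in that comparison (adjusted p = 0.384), with 0 DEGs among 6 tested. The transport list held 7 genes. The noradrenaline and serotonin transporters Slc6a2 and Slc6a4 and the cation transporter Slc22a2 had mean counts of 4 or less. Slc22a3, the extraneuronal monoamine transporter OCT3, had the highest mean count of the list. It had 33.3, 25.9, 35.8 and 38.1 CPM in MA12 rats 21, 31, 4N and 7N and 21.6, 23.1, 23.3 and 27.3 in non-addicted rats 9, 11, 12 and 13. Only MA12 rat 31 and non-addicted rat 13 overlapped, and the log2 FC of -0.49 ± 0.13 did not pass (adjusted p = 0.113).

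Of the breakdown genes after the oxidases, Aldh2, the mitochondrial aldehyde dehydrogenase that takes on the aldehydes they form, had the highest mean count. Its log2 FC was 0.26 ± 0.10 for MA24 against MA12 (adjusted p = 0.137). 6 of 7 tested genes of this list had positive log2 FC there, with a median of 0.20 beside -0.02 over all genes tested, and 0 were DEGs. Aldh3a2, which the variance filter removed there, was at -0.03 in the fit without it. Positive values were found for 5 of 8 tested genes in non-addicted against MA12 and for 1 of 6 in non-addicted against MA24. The genes of MA-related partners also held no DEG in 3 tested for MA24 against MA12, and the trace amine receptor Taar1 had 0 counts in all libraries. Ywhaz, with the highest mean count of this list, was removed there by the variance filter. Its log2 FC of -0.09 ± 0.07 (adjusted p = 0.517) was read from the edgeR fit without that filter. Sncg, gamma-synuclein, is named here because its values stood out once seen. It had 113, 72, 55 and 619 counts in MA12 rats 21, 31, 4N and 7N. In MA24 rats 9N, 14N, 15N and 16N it had 447, 57, 69 and 60, and non-addicted rats 9, 11, 12 and 13 had 31, 42, 39 and 49. Rats 7N and 9N were far above the rest of their groups, and every non-addicted rat was below every MA12 and MA24 rat. Groups did not overlap for 7.1% of all genes tested in non-addicted against MA12 and for 10% in non-addicted against MA24. The margin to MA12 was small, with a highest non-addicted level of 2.55 CPM and a lowest MA12 level of 2.59 CPM. The log2 FC of Sncg was -2.52 ± 0.63 for non-addicted against MA12 (adjusted p = 0.0903) and -1.89 ± 0.49 against MA24 (adjusted p = 0.0803), neither of which passed.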

How the data were processed

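Striatal poly(A) RNA of 12 rats was sequenced by the authors with an unstranded kit (TruSeq v2) after RNA extraction in 1 batch. After adapter removal by cutadapt 1.18, reads were mapped by STAR 2.7.0e to the rn6 build and counted per gene by featureCounts per the study's methods, while the submitters' processing notes also name HTSeq 0.12.4. The authors deposited raw counts per gene symbol, and these were used unchanged. Without strand, reads of a gene and of an antisense partner cannot be told apart.

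Groups came from the sample titles. Pairs of groups were fitted with edgeR 4.0.16 in R 4.3.3 (quasi-likelihood, TMM). A gene entered when its count averaged more than 4 across the 8 libraries, then the lowest 15% by variance of log2 CPM were removed, and p-values were adjusted over all genes by Benjamini-Hochberg. Members and named list genes lost to the variance filter were read from the fit without it, with p-values adjusted over its genes. Single genes were also compared by two-sided exact permutation of log2 CPM (prior count 2) over 70 splits of rats. DESeq2 1.42.0, other filters, factors and subsets of rats were alternatives. The fits were tested on simulated counts. Genes named were the members, list genes called or with the highest mean count of their list, and the 3 genes most like each member. The members and gene lists were chosen with earlier results of these data known. No transcript lengths were used, so mean counts rank genes only for this choice and are not levels per length. Library totals of 17908962 to 23850284 counts set the counting error.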

Additional observations from a re-analysis of the deposited data

Results flagged for a closer look

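In the groups of 4 rats, the tested members, Slc18a1 and the gene with the highest mean count of each monoamine list were searched for outliers. A rat was flagged when its gap to its nearest neighbour, as a share of the group's range of log2 CPM, exceeded Dixon's 95% critical value. Sncg, where rat 9N stood far above the other MA24 rats, was not in this search. Of 33 groups of values examined, chance would flag 1.65. Slc18a1 in MA24 rat 15N had a share of 0.884, with 37 counts against 102 to 111 in the other 3 rats. Tph2 in MA24 rat 14N had a share of 0.850, with 100 counts. Aldh2 in MA24 rat 9N had a share of 0.974, with 3931 counts or 169 CPM beside 208 to 209 CPM in the other 3 rats. Ywhaz in MA24 rat 16N had a share of 0.891, with 27727 counts. None of these rats stood apart by this measure for Th, Ddc, Slc18a2, Maoa or Maob.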

How the results depend on the processing

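The sign of the log2 FC was unchanged over all alternatives run for Maoa in the 3 comparisons, Slc18a2 and Th in the 2 with MA24, Maob in the 2 with non-addicted rats, Ddc in non-addicted against MA24, and Slc18a1 in the 2 with MA12. Signs turned as follows. Ddc in MA24 against MA12 was -9.43e-04 with N rats alone and -0.018 with a covariate for the kind of number, and Maob was 0.024 and 0.022. Slc18a2 in non-addicted against MA12 was -0.11 with rats without N alone and -0.12 with the covariate. Leaving out 1 rat gave -0.028 to 0.29 for Ddc and -0.040 to 0.049 for Maob in MA24 against MA12, -0.076 to 0.45 for Slc18a2, -0.73 to 0.60 for Th and -0.26 to 0.057 for Ddc in non-addicted against MA12, and -0.36 to 0.17 for Slc18a1 in non-addicted against MA24. DEGs among all genes in MA24 against MA12 were 116 with N rats alone and 47 with the covariate, and 129 (without MA24 rat 14N) to 436 (without rat 9N) with 1 rat left out. In non-addicted against MA12 they were 75 by DESeq2, 87 by the likelihood ratio test, 5 when the variance filter was dropped, 12 without filters, 4 with at least 10 counts per library, 16 with all 3 groups, 63 with rats without N and 10 with the covariate, and 8 (without non-addicted rat 12) to 93 (without MA12 rat 7N) with 1 rat left out. Non-addicted against MA24 gave 126, 163, 0 (2229 unadjusted), 10, 0 (2146 unadjusted) and 2 in the first 6 of these settings, and 0 (without non-addicted rat 12, 1211 unadjusted) to 187 (without rat 13) with 1 rat left out. Leaving out 1 rat gave 0 to 1 members there. The list count in MA24 against MA12 was 0 without the variance filter (6 unadjusted), with all 3 groups (5), with N rats (6) and with the covariate (6), and 0 to 1 with 1 rat left out. It was 1, Sncg, with the likelihood ratio test in both comparisons of non-addicted rats, where leaving out 1 rat gave 0 to 1 (Sncg without MA12 rat 31 or 4N, and without non-addicted rat 13 or MA24 rat 14N). Fewer rats or other genes entered these fits, and the causes were not otherwise tested. No paired analysis was possible because the groups share no rat number. Depth limits Slc6a3 and Th.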
